A study of Mus musculus with 6 samples.

Results

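The genes described here are 9 endothelial genes of the glycocalyx and the sialomucin family. Emcn, Podxl and Cd34 encode sialomucins, Sdc1, Sdc2, Sdc3 and Sdc4 encode the syndecans, Gpc1 encodes a glypican, and Has2 encodes a hyaluronan synthase. They were picked by gene symbol from the 49315 genes of the count table, with earlier results of these data known, and all 9 were in it. The cells were bEND.3, an immortalized endothelial line from mouse brain, from which all 6 samples come. A total of 4 samples (GapmeR 1 to 4) were transfected with an antisense LNA GapmeR against the long non-coding RNA Gm39822, and 2 samples (Negative Control 1 and 2) with a negative control GapmeR, each at 100 nM and with a Lipofectamine reagent. GapmeRs pair with their target RNA, and RNase H then cuts that RNA opposite the DNA stretch in their middle. The comparison asks how the transcripts of these genes differed after knockdown of Gm39822.

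The glycocalyx is the layer of sugar-bearing proteins and polysaccharides on the blood-facing surface of the endothelium. Its core proteins are syndecans, which span the membrane, and glypicans, which hang on a lipid anchor, and both carry heparan sulfate chains, while hyaluronan is a long polysaccharide extruded by synthases in the plasma membrane. The sialomucins are membrane proteins with dense O-linked glycans capped by sialic acid, and the layer as a whole is known for its part in the vessel's permeability, its sensing of flow and its control of leukocyte contact.

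RNA depleted of ribosomal RNA was sequenced, and the deposited values are raw read counts per gene. Total counts were 29261988 to 37117934 per sample. Genes with at least 1 count numbered 22830 to 23566 in the GapmeR samples, against 20573 and 21087 in the controls. The part of this difference in the rises from low counts described below was not tested. Gm39822 had 61 and 56 counts in the controls but 1 to 4 after knockdown (log2 fold change -4.82, standard error (SE) 0.41, edgeR adjusted p = 8.8e-08). Endothelial markers such as Cdh5, Pecam1 and Cldn5 were abundant in every sample, whereas Slco1a4, a marker of brain endothelium, had 0 or 1 count. The summed level of 16 endothelial markers was 9538 to 10880 CPM (counts scaled to a common library size by edgeR's TMM method) in the GapmeR samples, against 11310 to 11760 CPM in the controls. The summed levels of macrophage and leukocyte markers (214.8 to 401 against 177 to 182 CPM), pericyte and smooth muscle markers (8.67 to 13.4 against 2.19 to 2.34 CPM) and epithelial markers (1.59 to 2.19 against 0.62 to 0.85 CPM) were higher in the GapmeR samples, and those of lymphatic markers were lower (240.1 to 307 against 359 to 378 CPM). Single genes weighed heavily in some sums. Among the lymphatic markers, Flt4 had means of 203.8 CPM after knockdown and 297.7 CPM in the controls, whereas Lyve1 was not lower (76.6 against 70.4 CPM). Among the pericyte and smooth muscle markers, Myh11 (5.64 against 0.31 CPM) and Tagln (2.09 against 0.52 CPM) were called, and Pdgfrb, Cspg4 and Kcnj8 were not. Of the markers tested singly, 8 of 15 endothelial ones were lower and 2 higher. Of the others, 3 of 12 macrophage and leukocyte, 2 of 7 pericyte and smooth muscle and 3 of 5 epithelial markers were higher. Among the lymphatic markers 1 of 3 was lower, and 0 of 8 fibroblast markers were called. Over all genes tested, 20.0% were lower and 25.4% higher. The macrophage and leukocyte and the pericyte and smooth muscle counts thus lie near the share of all genes. The part of these markers in the results was not tested. In such bulk samples, fewer cells of a type and less RNA per cell cannot be told apart.

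Knockdown of Gm39822 was accompanied by lower transcript levels of most of these genes. The 3 largest declines were those of Has2, Emcn and Podxl, which stood at 29.2%, 39.9% and 49.2% of their mean control level. Cd34 and 3 of the 4 syndecans declined by less, to between 74.1% and 81.4% of control. All 9 genes passed the filter of at least 5 counts in at least 2 samples. In edgeR's quasi-likelihood test, adjusted over the 18234 genes tested, 7 of the 9 were lower at an adjusted p under 0.05 and none was higher, whereas Sdc1 and Gpc1 were not called. Gpc1 was the single gene with a positive value, and neither edgeR, at an unadjusted p under 0.05, nor DESeq2 or limma-voom called it. Over all genes tested, 45.3% were called, 20.0% as lower and 25.4% as higher, and 5232 genes were called in place of 8268 without Negative Control 2. Only Has2, Emcn and Podxl were called and at least 1.5-fold lower, as were 7.62% of all genes tested. The same 3 were at least 2-fold lower, as were 3.29% of all genes. The groups did not overlap for 8 of the 9 genes, as for 59.2% of all genes tested, and the median log2 fold change was -0.39 for the 9 genes and 0.03 for all genes tested. The 15 endothelial markers tested had a median of -0.30, with 53.3% lower and 13.3% higher. Declines of the size seen for Cd34 and the syndecans were thus not particular to these 9 genes. Nothing in the labels says that the samples came from separate cultures, so the p-values measure only the spread between these samples, which may be technical.

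**Figure D1:**
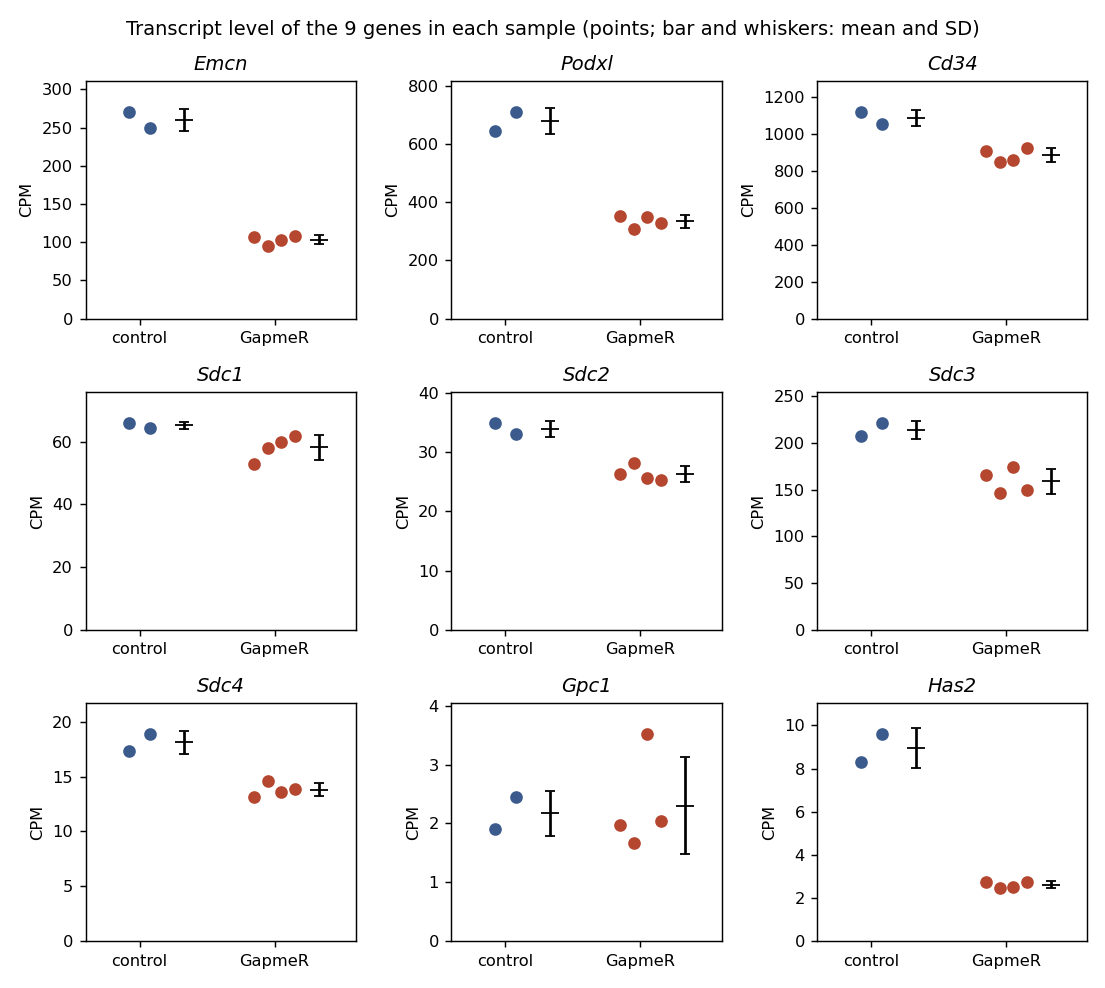
Transcript level of each of the 9 genes in CPM (vertical axis of each panel, starting at 0) in the 2 negative control samples (blue) and the 4 GapmeR samples (red), with the mean and SD beside the points. The groups are apart in every panel but that of Gpc1, and the gap is widest, relative to the level, for Has2, Emcn and Podxl.

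Emcn (ENSMUSG00000054690, chromosome 3 of mm10 from 137341062 to 137431069) encodes endomucin, a sialomucin of capillary and venous endothelium that hinders leukocyte adhesion. Its normalized level was 107, 95.3, 103 and 108 CPM across GapmeR 1 to 4, against 270.3 and 249 CPM in the controls. Every GapmeR sample was thus well below both controls, and the 4 lay close together. On average it stood at 103.5 ± 5.86 CPM (SD, n = 4) after knockdown, compared with a control level of 259.8 ± 14.9 CPM (SD, n = 2). Its log2 fold change was -1.33 (SE 0.07, 95% confidence interval -1.48 to -1.17, edgeR adjusted p = 5.39e-10), and 368 of the 18234 genes tested had a lower value.

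Podxl (ENSMUSG00000025608, chromosome 6 from 31519493 to 31563937) encodes podocalyxin, an anti-adhesive sialomucin of podocytes and the luminal face of endothelium. It measured 353, 307, 348.5 and 328.5 CPM across GapmeR 1 to 4, against 647 and 711 CPM in the controls. The GapmeR samples again lay in a narrow range below both controls. This gave a log2 fold change of -1.02 (SE 0.08, 95% confidence interval -1.19 to -0.86, edgeR adjusted p = 2.75e-08).

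Cd34 (ENSMUSG00000016494, chromosome 1 from 194938821 to 194961292) encodes the sialomucin CD34, found on blood progenitors and capillary endothelium and, when suitably glycosylated, a ligand of L-selectin. It measured 909, 845, 858 and 922 CPM across GapmeR 1 to 4, against 1117 and 1054 CPM in the controls. The groups did not overlap, but the gap was small beside that of Emcn or Podxl. The log2 fold change was -0.30 (SE 0.08, edgeR adjusted p = 0.00457). The call was lost in edgeR when libraries were scaled by their totals only (-0.15, adjusted p = 0.106) and when Negative Control 1 was left out (-0.24, adjusted p = 0.109). The lncRNA Gm16897 lies antisense to Cd34 with 491 shared exonic bases and had 69 to 102 counts per sample.

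The 3 sialomucins were also compared with each other within a sample. Relative to Cd34 in the same sample, Emcn had a count ratio of 0.118, 0.113, 0.120 and 0.117 across GapmeR 1 to 4, against 0.242 and 0.236 in the controls. Podxl had ratios to Cd34 of 0.356 to 0.406 after knockdown and of 0.579 and 0.674 in the controls. These ratios need no scaling between libraries, and neither overlapped between the groups. An exact permutation test, 2-sided, gave p = 0.0667 for each, the smallest value that the 15 splits of 4 samples against 2 allow, and 0.0667 after adjustment over 4 ratios. They were picked after the values had been seen.

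The stretch of 250 bases before a transcript start is printed below for Emcn and Cd34, the sialomucins with the largest and the smallest decline, and for the syndecan gene Sdc4. The bases come from RefSeq promoters on GRCm38.p6, which held 5 of the 9 genes (Emcn, Cd34, Sdc1, Sdc3 and Sdc4). They are written 5′ to 3′ on the strand of the gene, and capitals mark GGAA on either strand, the core bound by ETS factors, a family that includes regulators of endothelial genes. The windows are chr3:137340828-137341077 (plus strand), chr1:194938571-194938820 (plus strand) and chr2:164443189-164443438 (minus strand).
Emcn: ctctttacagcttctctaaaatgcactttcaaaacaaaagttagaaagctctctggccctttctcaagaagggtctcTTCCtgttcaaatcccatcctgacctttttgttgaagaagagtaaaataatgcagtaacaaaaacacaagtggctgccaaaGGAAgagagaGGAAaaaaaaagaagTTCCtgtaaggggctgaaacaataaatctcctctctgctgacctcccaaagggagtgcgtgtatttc
Cd34: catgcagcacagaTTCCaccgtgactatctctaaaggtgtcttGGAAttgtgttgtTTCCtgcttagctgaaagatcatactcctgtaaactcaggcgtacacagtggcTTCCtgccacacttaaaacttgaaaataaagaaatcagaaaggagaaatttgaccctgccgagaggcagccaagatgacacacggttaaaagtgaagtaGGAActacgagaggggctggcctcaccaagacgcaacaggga
Sdc4: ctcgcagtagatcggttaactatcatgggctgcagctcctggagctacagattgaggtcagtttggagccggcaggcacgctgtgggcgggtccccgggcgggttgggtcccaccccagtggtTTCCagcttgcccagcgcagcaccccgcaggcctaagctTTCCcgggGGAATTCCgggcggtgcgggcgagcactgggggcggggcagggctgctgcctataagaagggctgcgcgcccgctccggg
The core was found 4 times for Emcn, 5 times for Cd34 and 4 times for Sdc4, and 93.4% of the 32851 mouse promoters of the same length held it, with a median of 3. The GC box GGGCGG, searched on both strands, was found 0 times for Emcn and Cd34, 4 times for Sdc4 and 3 times each for Sdc1 and Sdc3, and 32.7% of all promoters held it. The G and C content was 40.8% for Emcn and 46.4% for Cd34, against 66.0% to 76.4% for the 3 syndecan genes. The TATA box TATAAA and the STAT motif TTCNNNGAA, on both strands, were found in none of the 5 windows, and 12.4% and 7.02% of all promoters held them. A match describes letters in the window and no binding was measured here.

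Syndecans are the main transmembrane heparan sulfate proteoglycans, and their ectodomains can be shed from the cell. Sdc3 (ENSMUSG00000025743, chromosome 4 from 130792537 to 130826318), a syndecan best known from nerve tissue, had the highest level per kilobase of the 4. It measured 165.5, 147, 174 and 149 CPM across GapmeR 1 to 4, against 208 and 221 CPM in the controls. All GapmeR samples were lower than both controls, with a log2 fold change of -0.43 (SE 0.08, edgeR adjusted p = 3.70e-04).

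Sdc2 (ENSMUSG00000022261, chromosome 15 from 32920723 to 33034721), which has been tied to angiogenesis, measured 26.3, 28.2, 25.6 and 25.3 CPM across GapmeR 1 to 4, against 34.9 and 33.0 CPM in the controls. The groups did not overlap. Its log2 fold change was -0.36 (SE 0.08, edgeR adjusted p = 0.00142).

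Sdc4 (ENSMUSG00000017009, chromosome 2 from 164424247 to 164443188), a component of focal adhesions, measured 13.1, 14.6, 13.6 and 13.9 CPM across GapmeR 1 to 4, against 17.4 and 18.9 CPM in the controls. It too was lower in every GapmeR sample. This gave a log2 fold change of -0.39 (SE 0.09, edgeR adjusted p = 0.00256), and without Negative Control 2 it was -0.31 with an adjusted p of 0.0785 in edgeR.

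Sdc1 (ENSMUSG00000020592, chromosome 12 from 8771396 to 8793716), the syndecan whose shed ectodomain serves as a plasma marker of glycocalyx damage, measured 52.8, 58.2, 60.1 and 61.9 CPM across GapmeR 1 to 4, against 66.0 and 64.5 CPM in the controls. The GapmeR samples were lower than both controls, but the nearest lay close to them. The log2 fold change was -0.16 (95% confidence interval -0.33 to -0.0028) and did not pass the test (edgeR adjusted p = 0.0903). When replicate numbers were taken as pairs (a block), although the labels do not say that they are, it was -0.23 with an adjusted p of 0.0292 in edgeR.

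Per kilobase of exon, the 4 syndecans summed to 39.6 to 42.4 CPM in the GapmeR samples, against 50.3 and 51.7 CPM in the controls, or 79.3% of the control mean. Within that sum, Sdc3 made up 44.4% ± 2.78 (SD, n = 4) after knockdown and 47.6% ± 1.20 (SD, n = 2) in the controls, and Sdc1 made up 34.5% ± 2.13 and 30.6% ± 1.10. The differences in share were 3.83 percentage points for Sdc1 (exact permutation p = 0.133, 2-sided, adjusted over the 4 shares 0.40), -3.16 for Sdc3 (exact permutation p = 0.20), -0.48 for Sdc4 and -0.20 for Sdc2. None reached the smallest p that the 15 splits allow.

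The 3 sialomucins summed to 140.8 to 156 CPM per kilobase after knockdown and to 252 and 255 in the controls, or 59.3% of the control mean. Cd34 made up 47.6% to 50.4% of the sum in the GapmeR samples, against 37.1% and 34.6% in the controls. Podxl made up 38.9% to 42.0% after knockdown and 46.6% and 50.6% in the controls, and Emcn 10.3% to 10.7% against 16.3% and 14.8%. No share overlapped between the groups (exact permutation p = 0.0667 for each, 2-sided, the smallest possible, and 0.0667 after adjustment over the 3). These shares were also examined after the values had been seen. Their size depends on the length used. With the longest annotated transcript as the length, Cd34 exceeded Podxl in the controls too (means of 181 and 126 CPM per kilobase). The shares were not recomputed with that length.

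**Figure D2:**
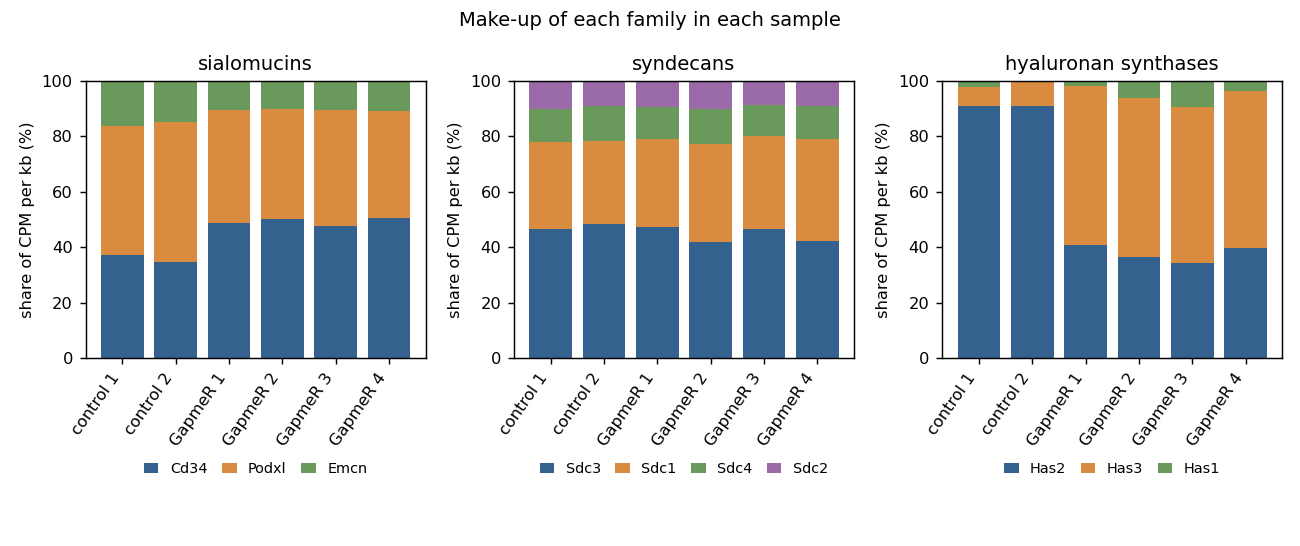
Share of each gene, in percent (vertical axis), of the summed CPM per kilobase of the sialomucins, the syndecans and the hyaluronan synthases, as stacked bars for the 2 negative control and 4 GapmeR samples. Cd34 takes 47.6% to 50.4% of the sialomucin sum after knockdown, Has3 takes 56.4% to 57.4% of the synthase sum, and Sdc3 takes 42.0% to 48.4% of the syndecan sum over all 6 samples. The size of the sialomucin shares depends on the length used for each gene.

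Gpc1 (ENSMUSG00000034220, chromosome 1 from 92831645 to 92860211) encodes glypican-1, a lipid-anchored heparan sulfate proteoglycan of the endothelial surface that takes part in flow sensing. It had only 67, 65, 109 and 66 counts across GapmeR 1 to 4, against 52 and 78 counts in the controls. In CPM, GapmeR 3 stood highest at 3.51, and the other GapmeR samples (1.98, 1.67 and 2.04) overlapped the controls (1.90 and 2.44). Its log2 fold change was 0.07 (95% confidence interval -0.53 to 0.66, edgeR adjusted p = 0.862), and values on both sides of 0 lie within the interval. The coefficient of variation among the GapmeR samples was 35.9% for Gpc1 and 6.13% for Has2, which had a similar number of counts in those samples. Without GapmeR 3 the value was -0.18. GapmeR 3 also stood apart in the summed level of 8 fibroblast markers (93.3 CPM against 17.4 to 23.4 CPM in the other GapmeR samples and 16.2 and 17.7 CPM in the controls), and the part of such cells in the Gpc1 value was not tested. The Gpc1 exons overlap those of Ankmy1 on the opposite strand, which had 1 to 8 counts.

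Has2 (ENSMUSG00000022367, chromosome 15 from 56665627 to 56694546) encodes the synthase that makes most long-chain hyaluronan in many tissues. It had 93, 95, 78 and 89 counts across GapmeR 1 to 4, against 227 and 306 in the controls, or 2.74, 2.44, 2.51 and 2.76 CPM against 8.29 and 9.59 CPM. The GapmeR samples were alike and lay far below both controls. This gave a log2 fold change of -1.78 (SE 0.14, 95% confidence interval -2.08 to -1.47, edgeR adjusted p = 5.03e-08), the lowest of the 9 genes, and 168 of all genes tested had a lower value. Its antisense RNA Has2os shares 400 exonic bases with it but had only 2 to 7 counts per sample.

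The other hyaluronan synthases were added after the values had been seen. Has3 rose, with 167, 191, 164 and 164 counts across GapmeR 1 to 4, against 22 and 39 in the controls, with a log2 fold change of 2.30 (SE 0.21, edgeR adjusted p = 1.92e-07). Has1 was scarce in every sample, with 0 to 19 counts. Per kilobase of exon, Has2 made up 90.9% ± 0.03 (SD, n = 2) of the synthase transcripts in the controls and 34.4% to 40.9% in the GapmeR samples, in which Has3 held 56.4% to 57.4%. The exact permutation p was 0.0667 for both shares, 2-sided, the smallest possible, and 0.10 after adjustment over the 3. The sum of the 3 synthases was 1.39 ± 0.06 CPM per kilobase (SD, n = 4) after knockdown and 1.97 ± 0.20 (SD, n = 2) in the controls, or 70.3% of control, without overlap.

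**Figure D3:**
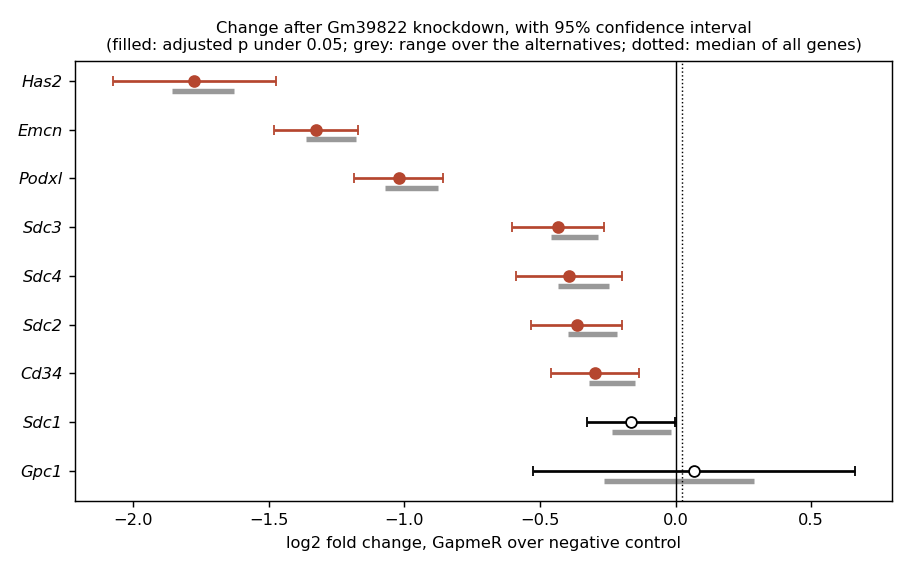
Log2 fold change of each of the 9 genes, GapmeR over negative control (horizontal axis), with its 95% confidence interval, filled where the adjusted p from edgeR was under 0.05. The grey bars span the values under 13 alternative settings and the dotted line is the median of all genes tested, 0.03. Has2, Emcn and Podxl lie near or below -1, Cd34, Sdc2, Sdc3 and Sdc4 lie between -0.43 and -0.30, and the interval of Gpc1 spans 0.

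Levels can be set side by side only per transcript length. In the controls the order, in mean CPM per kilobase of exon, was Podxl (123), Cd34 (90.8), Emcn (39.4), Sdc3 (24.3), Sdc1 (15.6), Sdc4 (6.25), Sdc2 (4.86), Has2 (1.79) and Gpc1 (0.223), and no neighbours in it overlapped between samples. In the GapmeR samples it was Cd34 (73.9), Podxl (60.6), Sdc3 (18.0), Emcn (15.7), Sdc1 (13.9), Sdc4 (4.76), Sdc2 (3.77), Has2 (0.525) and Gpc1 (0.236), and of these neighbours the ranges of Emcn and Sdc1 alone overlapped. Podxl and Cd34 thus traded places, as did Emcn and Sdc3. With the longest annotated transcript as the length, however, Cd34 led in both groups and Emcn followed Podxl, and 10 of the 18 places were kept, so that the order of some neighbours depended on the length used.

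**Figure D4:**
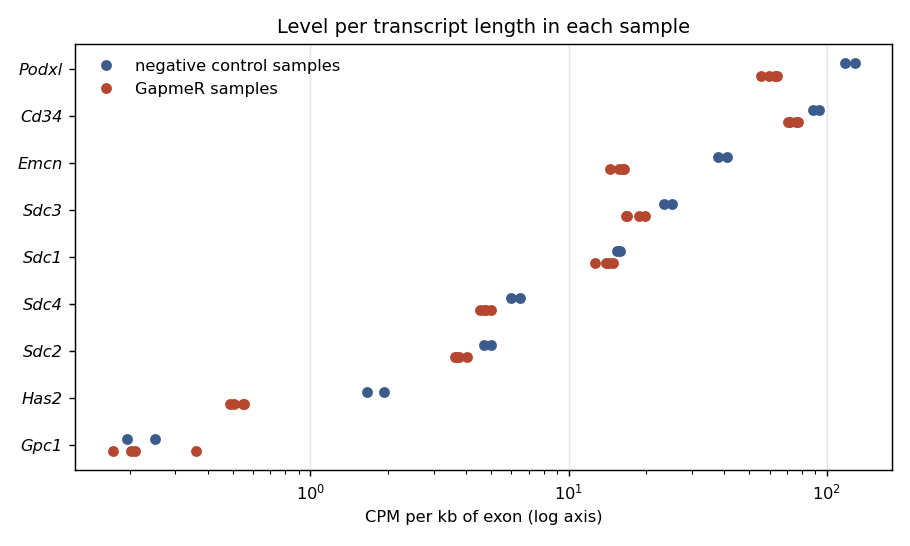
Level of each of the 9 genes in CPM per kilobase of exon (horizontal log axis) in the 2 negative control samples (blue) and the 4 GapmeR samples (red). The genes span from about 0.2 for Gpc1 to 123 for Podxl in the controls, and with this length Podxl lies below Cd34 in the GapmeR samples.

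The genes whose profile over the 6 samples was most like that of Has2, by the root mean square difference of centred log2 CPM among 12772 genes, were Selp (0.06), which encodes P-selectin, Itga1 (0.07), which encodes an integrin subunit that binds collagen, and Nmnat2 (0.08), which encodes an NAD-synthesizing enzyme. After knockdown Selp measured 56.8 ± 3.61 CPM (SD, n = 4), against 192.9 ± 3.02 CPM (SD, n = 2) in the controls. Nearest to Emcn were Ramp3 (0.04), encoding a partner of the calcitonin-receptor-like receptor, Lurap1l (0.07) and Tuba8 (0.07), encoding an alpha-tubulin. Ramp3 measured 198 ± 11.7 CPM after knockdown and 494.7 ± 7.97 CPM in the controls. With 2 groups of close replicates, this likeness mostly restates a similar difference between the groups. The log2 fold change was -1.76 for Selp and -1.78 for Has2, and -1.32 for Ramp3 and -1.33 for Emcn. Shared regulation was not tested.

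Hand-written lists placed the 9 genes among the genes that build, bind and shed the glycocalyx, and their values are given as mean ± SD over 2 controls and 4 GapmeR samples. Podxl2, Cd164, Muc1, Muc13, Hyal1, Hyal2, Tmem2, Papss1, Chpf2, Ust, Fut7, Mmp15, Timp1, Timp2 and Timp3 are named after their values were seen. Over all genes tested, 20.0% were lower and 25.4% higher, with a median log2 fold change of 0.03. Of 10 sialomucins tested, 6 were lower and 3 higher, with a median of -0.37, but Emcn, Podxl and Cd34 are among them. In the 7 others the median was 0.04, and Podxl2, Cd164 and Cd24a were lower and Selplg, Muc1 and Muc13 higher. Muc13 was absent from the counts of either control (0) and scarce, at 5 to 9 counts, in the GapmeR samples. Cd24a, a small sialomucin, fell from a control level of 5.85 ± 0.90 CPM to 2.56 ± 0.72 CPM (log2 fold change -1.18, edgeR adjusted p = 3.60e-04). Selplg, which encodes the P-selectin ligand PSGL-1 of leukocytes, rose (61, 67, 127 and 113 counts in GapmeR samples 1 to 4 against 12 and 28). It was highest in GapmeR 3 and 4, in which the macrophage and leukocyte markers summed to 368 and 401 CPM against 234 and 214.8 CPM in GapmeR 1 and 2, and their part in it was not tested. Without Negative Control 1, 5 of the 10 were called.

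Among 23 proteoglycan core proteins, 8 (34.8%) were lower and 2 higher (median -0.27). Sdc2, Sdc3 and Sdc4 are among those 8, and of the 18 core proteins outside the 9 genes, 5 were lower and 2 higher (median -0.20). Srgn, the core protein serglycin of secretory granules, fell from 82.5 ± 5.96 to 39.2 ± 2.73 CPM (log2 fold change -1.07, edgeR adjusted p = 1.58e-08), and Bcan, which encodes brevican, a matrix proteoglycan of brain, had a log2 fold change of -0.90 at about 1 to 2 CPM. Agrn, which encodes the basement membrane heparan sulfate proteoglycan agrin, rose from 135.5 ± 9.17 to 176 ± 16.0 CPM (0.38, adjusted p = 0.00218), and Gpc2, a glypican of neurons, rose by 0.75 on the log2 scale. Without Negative Control 2, only 3 of the 22 core proteins then tested were called, all of them lower.

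Among 24 genes of hyaluronan synthesis, turnover and binding, 10 (41.7%) were lower and 7 higher (median -0.30), or 9 and 7 of 23 without Has2 (median -0.29). Cd44, which encodes the main cell-surface hyaluronan receptor, measured 60.0, 58.0, 59.0 and 56.3 CPM across GapmeR 1 to 4, against 109.8 and 112 CPM in the controls (log2 fold change -0.93, edgeR adjusted p = 1.18e-08). Habp4, an intracellular protein that binds hyaluronan and RNA, fell by 0.97 on the log2 scale. In contrast, Cemip, which encodes a protein needed for hyaluronan breakdown, rose from 6 and 11 counts in the controls to 72 to 112 counts (3.23, edgeR adjusted p = 3.80e-07). Hyal3, of the hyaluronidase family, rose by 1.80 on the log2 scale. Other turnover genes of the list were more abundant than Cemip and Hyal3 and were called lower. These were Hyal2 (93.4 CPM in the controls and 76.5 CPM after knockdown), Tmem2 (57.8 and 44.0 CPM) and Hyal1 (13.05 and 9.56 CPM). The balance of this list depended on the scaling, since 5 were lower and 9 higher with library size only.

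Of 27 genes of heparan sulfate synthesis and turnover, 13 (48.1%) were lower and 1 was higher (median -0.33). Ext2, a subunit of the polymerase that extends the chain, had 191 ± 13.4 CPM in the controls, compared with 105.4 ± 5.29 CPM after knockdown (log2 fold change -0.86, edgeR adjusted p = 1.02e-07). B3gat3, which completes the linker between core protein and chain, had a value of -0.78, and Hs3st1, the 3-O-sulfotransferase that makes binding sites for antithrombin, one of -1.05. The single gene that rose, Papss2, makes the sulfate donor and was named after its values were seen, with 9 to 16 counts against 2 in each control. The far more abundant Papss1, which makes the same donor, fell from 90.5 ± 3.06 to 72.3 ± 4.78 CPM (log2 fold change -0.33, edgeR adjusted p = 0.00225). With library size only, 9 were lower and 3 higher.

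In the remaining lists, 5 of 14 genes of chondroitin and dermatan sulfate synthesis (35.7%) were lower (Chpf, Chpf2, Chst7, Chst14 and Ust) and 1, Csgalnact1, was higher (median -0.16). Chpf, a factor of chondroitin polymerization, fell from 11.1 ± 0.62 to 2.90 ± 0.73 CPM (log2 fold change -1.94, edgeR adjusted p = 4.19e-07). Without either control sample, or with library size only, 3 of these genes were called. Of 38 genes of mucin-type O-glycan and sialic acid synthesis, 10 (26.3%, beside 20.0% of all genes tested) were lower and 4 higher (Galnt10, Gne, Neu2 and Fut7), with a median of -0.11. Neu1, the lysosomal sialidase, fell from 55.9 ± 1.94 to 27.8 ± 1.14 CPM, St6galnac4, a sialyltransferase, had a log2 fold change of -0.99, and Chst2, a sulfotransferase of L-selectin ligands, one of -0.88. Neu2, the cytosolic sialidase, rose from 14 counts in each control to 72 to 98 counts (2.37, edgeR adjusted p = 7.96e-06).

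Of 21 sheddases and inhibitors of sheddases, 11 (52.4%) were lower and 4 higher (Adam8, Mmp3, Mmp15 and Reck), with a median of -0.25. The list pools proteases with inhibitors, so its counts give no direction for shedding. The inhibitor genes Timp1 (-0.25), Timp2 (-0.39) and Timp3 (-0.73) were among those lower, and Reck, among those higher, also encodes an inhibitor. Mmp13, a collagenase, measured 2.59 to 3.28 CPM after knockdown and 14.9 and 15.3 CPM in the controls (log2 fold change -2.35, edgeR adjusted p = 4.79e-10). Adamts1, a protease that cleaves proteoglycans and syndecan-4, fell from 1371 ± 78.3 to 734 ± 28.3 CPM, and Plat, the tissue plasminogen activator, fell by 1.10 on the log2 scale. Mmp3, or stromelysin-1, and the metalloprotease gene Adam8 each rose by 0.78. Adam8 was higher in GapmeR 3 and 4 (51.4 and 51.5 CPM) than in GapmeR 1 and 2 (38.4 and 39.4 CPM). The summed macrophage and leukocyte markers were split in the same way, and their part in the Adam8 value was not tested.

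Of 13 genes listed as partners of syndecans and sialomucins, 8 (61.5%) were lower and 3 higher (Synm, Sdcbp2 and Arhgef28), with a median of -0.25. Whether each of them, Synm and Arhgef28 included, binds a syndecan or sialomucin was not checked. Prkca, which encodes the protein kinase C alpha recruited by syndecan-4, measured 11.8 to 12.8 CPM after knockdown and 35.6 and 35.0 CPM in the controls (-1.52, edgeR adjusted p = 3.70e-10). Slc9a3r1, the scaffold NHERF1 that binds podocalyxin, had a log2 fold change of -0.82, and Rdx, the actin linker radixin, one of -0.54. Synm, which encodes the intermediate filament protein synemin, rose by 0.68. Without Negative Control 2, and with library size only, 4 partners were lower and 3 higher.

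**Figure D5:**
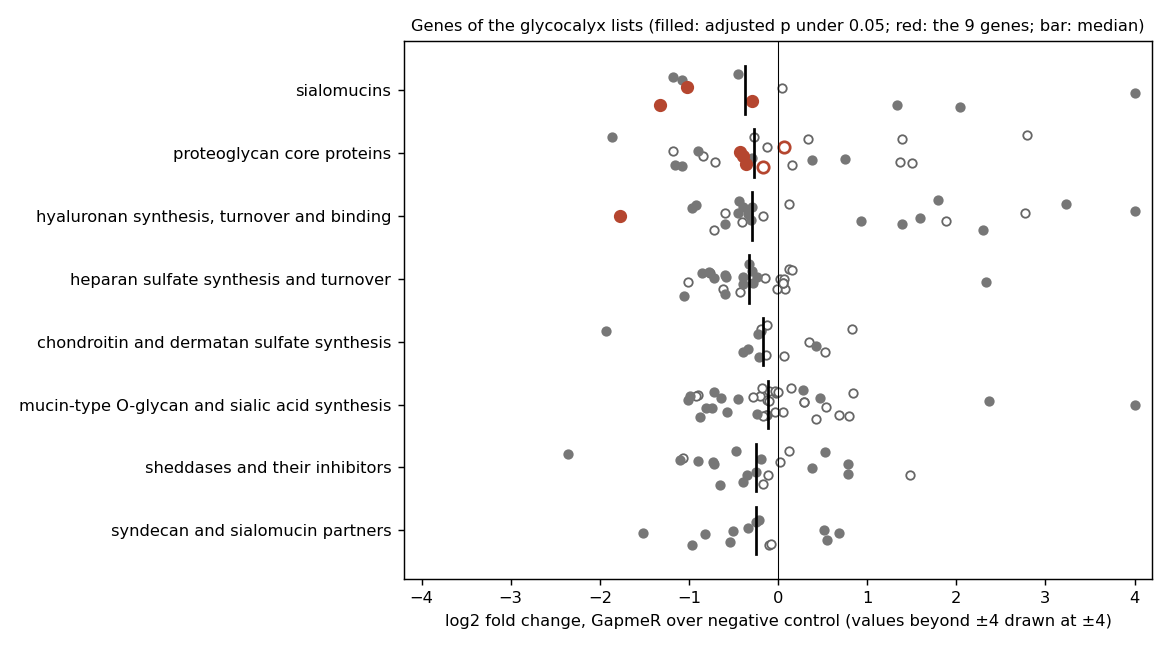
Log2 fold change, GapmeR over negative control (horizontal axis), of each gene tested in 8 lists, filled where the adjusted p from edgeR was under 0.05. The 9 genes are in red and the bars are the list medians, which lie between -0.37 and -0.11. The filled points of the heparan sulfate list lie below 0 with 1 exception.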

How the data were processed

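Paired reads of 6 ribodepleted bEND.3 samples were aligned by the authors to mm10 with STAR. The submitters' processing notes name Trimmomatic 0.36, STAR 2.5.2b, Subread 1.5.2 and the builds GRCm38 and mm10. The values the authors deposited are raw counts, each a whole number of reads on a gene. Whether strand was used in counting, and which Ensembl release, is not given in the sources used here, so that antisense or overlapping genes may share reads. The labels give 4 GapmeR and 2 negative control samples, whereas the study's methods give 4 of each. A further per-sample column (1) was left unused, since it matches no sample of the labels, although its header continues the naming of the negative control columns.

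Genes that reached 5 counts in 2 or more samples (18234 of 49315) were scaled by TMM and tested with the robust quasi-likelihood test of edgeR 4.0.16 in R 4.3.3, with Benjamini-Hochberg adjustment over all of them. DESeq2 1.42.0, the study's tool, and limma-voom (3.58.1) were alternatives, as were 2 other scalings, 2 filters, a 1.5-fold threshold, a replicate block and leaving out each sample. Ratios and shares were compared by exact permutation. No samples agreed within sampling noise (chi-square per degree of freedom 6.01 to 28.9). A floor of 3 counts was 0.077 to 0.109 CPM and covers counting error only. On simulated counts of 17735 genes, edgeR recovered 37 of 66 genes changed 1.5-fold, 51 of 66 changed 2-fold and 57 of 60 changed 4-fold.

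Exon lengths came from the GENCODE annotation of GRCm39 by Ensembl identifier and coordinates from RefSeq at mm10. The 9 genes and the lists were chosen with earlier results of these data known. In each list, up to 3 genes with the highest and 3 with the lowest log2 fold change were eligible for naming if they passed the test, averaged 1 CPM or more and did not overlap between groups, besides the 9 genes, the target, genes overlapping the 9, and the 3 genes most similar in profile to Has2 and to Emcn.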

Additional observations from a re-analysis of the deposited data

Results flagged for a closer look

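In 6 of 60 values tested, 1 of the 4 GapmeR samples stood apart from the others, with a gap to its neighbour that was a larger share of the whole range than Dixon's 95% limit. Chance gives about 1 in 20. GapmeR 2 was low in the summed endothelial markers (9538 CPM, ratio 0.917), in Neu1 (26.2 CPM, ratio 0.853) and in Chst2 (65.5 CPM, ratio 0.857). GapmeR 3 was high in the summed fibroblast markers (93.3 CPM, ratio 0.92) and low in Mmp3 (17.4 CPM, ratio 0.931). GapmeR 4 was high in Agrn (199.8 CPM, ratio 0.849). No value of the 9 genes passed this limit in the GapmeR samples. For Neu1, Chst2, Mmp3 and Agrn, the outlying sample remained on the same side of both controls as the other GapmeR samples.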

How the results depend on the processing

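Of 127 tested fold changes under alternatives, 119 kept their direction and their side of the threshold. Of 140 counts of calls, 123 were within 1.5 times the reported count, which does not speak to their directions or genes. Emcn, Podxl, Has2, Sdc2 and Sdc3 were called lower in 13 of 13 alternatives with a fold change, Sdc4 in 12, Cd34 in 11, Sdc1 in 1 and Gpc1 in 0. Scaling by library size only moved the median log2 fold change of all genes by 0.148, to 0.173, and gave 6106 higher and 2135 lower calls in place of 4625 and 3643. Under it Cd34 was -0.15, and 3 chondroitin genes and 7 partners were called. Sdc2 (-0.22, edgeR adjusted p = 0.0432) and Sdc4 (-0.25, edgeR adjusted p = 0.0476) then passed the threshold only narrowly. With the same scaling Sdc3 was -0.29 (edgeR adjusted p = 0.00647), Has2 -1.63, Emcn -1.18 and Podxl -0.87. The 1.5-fold threshold left 4628 genes in all, 3 of the 9 genes, 5 proteoglycans, 11 hyaluronan genes, 7 heparan sulfate genes, 1 chondroitin gene, 9 O-glycan genes, 8 sheddases or inhibitors and 4 partners, since it is the stricter rule. For Gpc1 the sign reversed with limma-voom (-0.00021).

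Leaving out a sample gave 5232 to 8719 calls in all (lowest without Negative Control 2), 6 or 7 of the 9 genes, 5 to 9 sialomucins, 3 to 11 proteoglycans, 10 to 14 heparan sulfate genes, 3 to 6 chondroitin genes and 7 to 11 partners. The log2 fold changes were then -0.32 to -0.24 for Cd34 (not called without Negative Control 1), -0.43 to -0.31 for Sdc4 (not called without Negative Control 2) and -0.18 to 0.29 for Gpc1, which was negative without GapmeR 3 or Negative Control 1 (-0.078). The difference in the Sdc2 share of syndecans ranged from -0.599 to 0.202 percentage points and reversed without GapmeR 3 (0.0374) and Negative Control 1 (0.202). The longest transcript as length kept 10 of 18 places in the order.

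Deviations of same-numbered samples from their group means correlated at -0.0223 and 0.0659 over 12772 genes, which gave no sign of pairing. The deviations of the 2 controls mirror each other, however, so these values cannot tell whether such samples shared a culture or batch. The labels do not say. With the replicate block, on the 2 shared numbers, 7962 genes were called, Sdc1 was -0.23 and Gpc1 -0.26. Gm39822 was not tested with the stricter filter or without either control. The cause of these shifts was not tested. With 1 control left out, the other is assumed to vary like the GapmeR samples. Gpc1 had 52 to 109 counts and Has2 78 to 306, and whether depth sets the width of the Gpc1 interval was not tested.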
